A study of Mus musculus with 8 samples.

Results

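The genes described here are 43 genes of the Fanconi anaemia pathway, homologous recombination and mismatch repair, with the end-joining and checkpoint genes that act beside them, in mouse haematopoietic stem cells (HSCs) of 2 ages. They were chosen by gene symbol and not by a measured value, but with earlier results of these data known. All 43 were found among the 38172 gene entries of the deposited table, in 45 entries. Rad54b shares its entry with Fsbp, so its values hold reads of both genes, and Pms2 has 2 further entries joined to Rsph10b2 that were not counted. All 43 had scaled values of 10 or more in 2 or more of the biological replicates, the limit set for testing, and were tested among 18318 genes in all.

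The series sequenced polyadenylated RNA of HSCs, the self-renewing bone marrow cells from which the blood lineages descend, freshly sorted from C57BL/6 mice. The young group was 4 months old and the old group 24 months old, and no genetic change or treatment is named for either. The sort was SP-KSL-CD150+: side population (SP) cells, which exclude a dye that stains DNA, with no lineage markers, with Kit and Sca-1 (KSL), and with the receptor CD150. Each age had 2 biological replicates, numbered 13 and 14, and each replicate was sequenced as 2 technical libraries, 8 libraries in all. How many mice gave each replicate, and whether the replicates share mice, is not stated, so the p-values speak only of the spread between these samples.

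DNA repair in a stem cell draws on several routes. In the Fanconi pathway, a core complex of proteins recognises a replication fork stalled at a crosslink between the DNA strands and attaches ubiquitin to the FANCD2 and FANCI pair, which then calls in nucleases. Homologous recombination restores a broken chromosome by copying the sister chromatid: the MRE11 complex and its partners trim the broken ends, BRCA1, PALB2 and BRCA2 prepare the trimmed strand for exchange, and RAD54 and the RecQ helicases process the joined molecules. Because a sister chromatid is needed, these genes act mainly during and after DNA replication, and many of them are transcribed most in dividing cells. End joining, led by the Ku proteins, ligates broken ends without a template and serves resting cells as well, and mismatch repair corrects copying errors. Inherited loss of Fanconi genes causes bone marrow failure in people with Fanconi anaemia, and repair in HSCs has been studied in relation to ageing.

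The values used, called scaled values here, are read counts that had been multiplied by a library's own factor and rounded before deposit. They summed to between 40.7 M and 44.2 M per library, from an estimated 22.3 M to 66.5 M reads. The sorted cells expressed the 11 HSC markers examined, among them Kit, Ly6a (Sca-1) and Slamf1 (CD150), by which they had been sorted. The fitted change was above 0 in all 11, as it was in 10349 of the 18318 genes tested. Of 5 T cell markers, Cd3d, Cd3e, Cd3g and Cd8a were too low to be tested and Lck made up most of a summed scaled value of 377.5 to 431 per replicate. Neutrophil markers differed most between replicates, with sums of 14502 and 55140 in young 13 and young 14 and of 13886.5 and 28390.5 in old 13 and old 14. Of these 12 markers, 11 had a fitted change below 0, and Prtn3 was above it. Monocyte markers summed to 8504.5 and 23474 in young 13 and young 14 and to 8947 and 17179.5 in old 13 and old 14. Erythroid markers summed to 7656.5 and 7009 in the young replicates and to 3515 and 3543.5 in the old ones, and the stroma markers to 6060.5 and 6440.5 against 2497.5 and 2080.5. Both old replicates lay below both young ones in 5 of 8 erythroid entries and 4 of 6 stroma markers, against 17.4% of all genes. The globin entries, Epor, Cxcl12 and Lepr overlapped between the ages. The early progenitor markers Cd34, Flt3 and Cd48 summed to 15751 and 17453 in the young and to 7149.5 and 9323.5 in the old. The part of these cells in the values of the repair genes was not tested.

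Most repair genes had lower values in old HSCs than in young ones, by amounts that did not pass the test gene by gene. The fitted change, the log2 difference old minus young, was below 0 for 39 of the 43 genes, where 43.5% of all genes tested lay below 0. Its median was -0.32, with a range of -0.60 to 0.20, against a median of 0.04 over all genes. In 28 genes both old replicates lay below both young ones, which 17.4% of all genes did, and in 1 gene, Fancf, both lay above, which 24.7% of all genes did. With limma's moderated test and Benjamini-Hochberg adjustment over all genes, none of the 43 had an adjusted p under 0.05 in either direction. The background was 0.540% of genes called lower and 2.01% called higher. At an unadjusted p under 0.05, 15 of the 43 were lower and none was higher, where 5.08% of all genes were lower and 8.97% higher. Limma-voom gave the same counts, 0 by adjusted p and 15 lower by unadjusted p. Without the filter on low values the counts were 0 and 12. A fit that also held the replicate number as a block gave other counts, which the last section reports. In whole RNA, fewer cells of a type and less RNA per cell cannot be told apart.

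The count of 15 moved when a replicate was left out. It was 1 without young 13, 3 without young 14, 18 without old 13 and 6 without old 14, where the age left with 1 sample was taken to vary like the other. Of these 15 genes, 5 (Brca1, Brca2, Fanca, Fancm and Rbbp8) had a log2 difference smaller by over 1.5 times without old 14, and none without any other replicate. The number of genes below 0 lay between 36 and 39 over the same 4 fits. The summed scaled value of the 43 genes was 113156 for young 13 and 110847 for young 14, and it was 100495 for old 13 and 88649.5 for old 14. Both old sums lay below both young sums, and old 14 was the lowest.

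**Figure D1:**
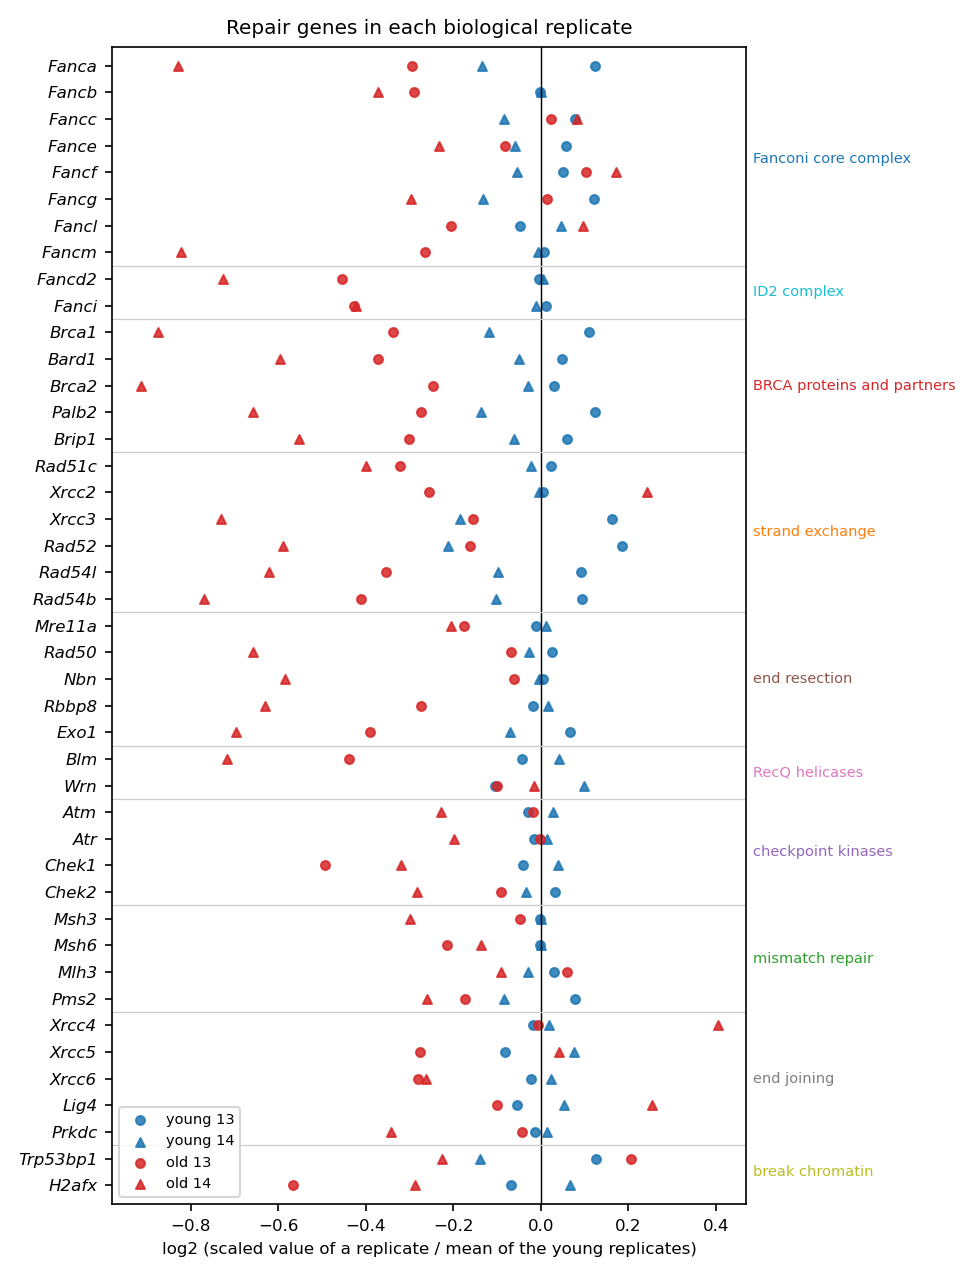
Each of the 43 repair genes is a line, grouped by role, and each point is a biological replicate (mean of 2 technical libraries) as the log2 ratio to the mean of the young replicates, with young in blue, old in red, replicate 13 as circles and replicate 14 as triangles. Both red points lie left of both blue ones in 28 of 43 genes, and the red triangle is the lower of the 2 red points in 30.

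Promoter sequence gives a view of these genes that does not use their RNA values. E2F factors, which drive genes of DNA replication, bind words such as TTTCCCGC, TTTCGCGC, TTTGCCGC and TTTGGCGC. These 4 words were searched on both strands of the 250 bases before the gene start in RefSeq promoters of GRCm38.p6. Of the 43 genes, 33 had an entry, with 37 promoters, and 6 of the 37 promoters (16.2%), each of another gene, held a word, against 1.86% of all 32851 promoters. The 6 genes were not all among the lower ones: 2 of the 10 genes with a promoter entry that were lower at an unadjusted p under 0.05 held one, and so did 4 of the other 23. A match describes letters in this window and is not a shown binding site. The promoters compared were not matched for base composition, and its part in these shares was not tested. The 6 stretches of 100 bases are printed 5′ to 3′ on the gene's strand, with the matched word in capitals, because the word was found in these genes. The capitals in Msh3 cover a pair of overlapping words, 1 on each strand.
Fancg, chr4:43010302-43010401, minus strand: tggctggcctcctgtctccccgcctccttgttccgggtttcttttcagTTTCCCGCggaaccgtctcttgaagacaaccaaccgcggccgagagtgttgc
Bard1, chr1:71103123-71103222, minus strand: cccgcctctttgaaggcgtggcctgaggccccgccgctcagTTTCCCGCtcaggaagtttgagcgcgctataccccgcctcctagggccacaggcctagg
Brca2, chr5:150522407-150522506, plus strand: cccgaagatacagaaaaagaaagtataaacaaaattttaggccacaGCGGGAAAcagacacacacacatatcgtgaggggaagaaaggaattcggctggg
Chek2, chr5:110839785-110839884, plus strand: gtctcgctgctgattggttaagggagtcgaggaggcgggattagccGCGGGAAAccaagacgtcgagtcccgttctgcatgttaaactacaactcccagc
Msh3, chr13:92355152-92355251, minus strand: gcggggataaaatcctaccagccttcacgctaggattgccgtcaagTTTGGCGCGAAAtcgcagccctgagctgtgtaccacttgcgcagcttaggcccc
Xrcc6, chr15:82016269-82016368, plus strand: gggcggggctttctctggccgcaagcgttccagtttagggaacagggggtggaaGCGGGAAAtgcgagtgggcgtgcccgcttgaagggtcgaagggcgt
The word lay nearest the gene start in Xrcc6, 46 bases before it, and farthest in Bard1, 209 bases before it. The cell cycle word TTTGAA, searched the same way, was found in 1 of the 37 promoters, that of Bard1, against 16% of all promoters.

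The FANCD2 and FANCI pair, the ubiquitin-marked clamp at the centre of the Fanconi pathway, had lower values in old HSCs in both genes. Fancd2 (mm9 chr6:113481677-113546279, plus strand) had scaled values of 1595 and 1603.5 in young 13 and 14 and of 1167.5 and 967 in old 13 and 14. The young values nearly coincided, though technical libraries differed by up to 0.10 on the log2 scale, and both old values lay well below them. The log2 difference was -0.59 (SE 0.16, adjusted p 0.135, limma), which with Blm was the smallest adjusted p of the 43. Fanci (mm9 chr7:86537225-86595150, plus strand) had scaled values of 2116.5 and 2085 in the young and of 1562.5 and 1568.5 in the old. Its replicate means differed little within each age and the ages did not overlap, with a log2 difference of -0.42 (SE 0.14, adjusted p 0.206). The technical libraries of 1 replicate differed by up to 0.16 on the log2 scale, more than these means. Fanci overlaps Polg on the opposite strand, and whether the counting used strand is not stated. In all, 10 of the 43 genes overlap a gene on the opposite strand, so some of their reads may not be their own.

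The 8 genes of the Fanconi core complex, which carries the ubiquitin ligase, were mixed. Of these, 6 lay below 0, with a median of -0.15. At an unadjusted p under 0.05, 2 of 8 were lower, against 5.08% of all genes. Fancm, the helicase that anchors the complex on DNA, had scaled values of 1505 and 1491.5 in the young and of 1247 and 847 in the old, a log2 difference of -0.54 (SE 0.21, adjusted p 0.29). Fanca, a scaffold of the complex, had scaled values of 1986 and 1661 in the young and of 1486 and 1027 in the old, a log2 difference of -0.56 (SE 0.21, adjusted p 0.29). In both genes the ages did not overlap, and old 14 was far below old 13. Without old 14 the log2 difference was -0.26 for Fancm and -0.29 for Fanca. Fanca overlaps Zfp276 on the opposite strand.

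The catalytic subunit overlapped between the ages. Fancl, the ubiquitin ligase itself, had scaled values of 933 and 994.5 in the young and of 836.5 and 1031 in the old, a log2 difference of -0.05 (95% interval -0.45 to 0.35). Fance, which binds FANCD2, had scaled values of 1121.5 and 1035.5 in the young and of 1018.5 and 917.5 in the old, and the ages were separated by a small gap (log2 difference -0.16, adjusted p 0.746). Fancl and Fance were the most abundant core genes per length, at mean FPKM values of 10.8 and 10.2, where FPKM is the scaled value divided by 50 and by the exon length in kilobases. Fancb, Fancc, Fancf and Fancg had log2 differences from -0.33 to 0.14. Fancc and Fancf were above 0, and Fancf had scaled values of 418.5 and 389 in the young and of 434 and 455 in the old.

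BRCA1, BRCA2 and their partners were separated between the ages in 5 of 5 genes, all lower in the old, against 17.4% of all genes. The median was -0.48, and 4 of 5 were lower at an unadjusted p under 0.05, against 5.08% of all genes. Brca1 (mm9 chr11:101350079-101413269, minus strand) had scaled values of 3052 and 2608 in the young and of 2238 and 1544 in the old. Its old mean was 33.2% below its young mean, the lowest log2 difference of the 43 at -0.60 (SE 0.21, adjusted p 0.237, limma). Brca2 (mm9 chr5:151325199-151372324, plus strand), which acts on the trimmed strand before exchange, had scaled values of 4939.5 and 4742 in the young and of 4079.5 and 2569.5 in the old, a log2 difference of -0.58 (SE 0.22, adjusted p 0.302). In both genes old 14 lay far below old 13. Without old 14 the log2 difference was -0.33 for Brca1 and -0.25 for Brca2.

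The binding partners showed smaller gaps between the old replicates. Bard1, the partner of BRCA1 in its ubiquitin ligase, had scaled values of 1584.5 and 1478.5 in the young and of 1184 and 1013.5 in the old, a log2 difference of -0.48 (SE 0.15, adjusted p 0.208). Brip1, a helicase bound by BRCA1, had scaled values of 1717.5 and 1578 in the young and of 1338 and 1123.5 in the old, a log2 difference of -0.42 (SE 0.16, adjusted p 0.279). In both, the lowest young value stood above the highest old one. Palb2, the bridge between BRCA1 and BRCA2, had scaled values of 1074.5 and 896.5 in the young and of 815 and 625 in the old, with an unadjusted p of 0.0504 and a log2 difference of -0.46, which was -0.27 without old 14.

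Among 6 genes of strand exchange, all 6 were below 0, with a median of -0.40. At an unadjusted p under 0.05, 2 were lower, against 5.08% of all genes. Rad54l, a motor protein of strand pairing, had scaled values of 2050.5 and 1796.5 in the young and of 1506.5 and 1250.5 in the old, a log2 difference of -0.48 (SE 0.16, adjusted p 0.229). The shared entry of its relative Rad54b had scaled values of 1227 and 1070.5 in the young and of 864.5 and 674.5 in the old, a log2 difference of -0.59 (SE 0.18, adjusted p 0.197). The ages did not overlap in either. Rad54l overlaps Lrrc41 on the opposite strand.

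The values of Xrcc3, Xrcc2 and Rad51c, which assist strand exchange, were unlike each other. Xrcc3 had scaled values of 1237.5 and 973 in the young and of 993 and 666 in the old, with young 14 below old 13. Xrcc2 had scaled values of 1030 and 1023 in the young and of 859.5 and 1215 in the old, so that the old replicates lay on either side of the young. Rad51c, at a mean FPKM of 1.33, had scaled values of 223 and 216 in the young and of 175.5 and 166.5 in the old, an unadjusted p of 0.128. Rad52, a DNA annealing protein, had an overlap between the ages and a log2 difference of -0.36, which was -0.16 without young 13 and -0.15 without old 14. That of Xrcc3 was -0.43, and -0.14 without old 14.

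The end resection genes, which trim broken ends to single strands, were all lower in the old. The ages were separated in 5 of 5, against 17.4% of all genes. The median was -0.36. Exo1, the long-range exonuclease, which also works in mismatch repair, had scaled values of 2238 and 2036 in the young and of 1630 and 1319 in the old, a log2 difference of -0.54 (SE 0.16, adjusted p 0.179). Rbbp8, the CtIP protein that starts resection, had scaled values of 2056.5 and 2106.5 in the young and of 1723 and 1346 in the old, a log2 difference of -0.45 (SE 0.17, adjusted p 0.277). Old 14 was the lowest replicate in both genes, and without it the log2 difference of Rbbp8 was -0.27.

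Within the MRE11 complex the replicates behaved unequally. Rad50, its structural arm, had scaled values of 6370 and 6137 in the young and of 5969.5 and 3963 in the old, so nearly the whole difference lay in old 14. Mre11a, the nuclease, had scaled values of 2937.5 and 2986.5 in the young and of 2623 and 2568.5 in the old, an even gap of -0.19 on the log2 scale (adjusted p 0.628). Nbn, the third subunit, had scaled values of 2054 and 2042.5 in the young and of 1962.5 and 1365.5 in the old. Like Rad50, it was far lower in old 14 than in old 13. Without old 14 the log2 difference moved from -0.36 to -0.07 for Rad50 and from -0.32 to -0.06 for Nbn.

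Of the pair of RecQ helicases, Blm was separated between the ages and Wrn was not. Blm (mm9 chr7:87599880-87680005, minus strand), which dissolves joined recombination intermediates, had scaled values of 2779.5 and 2947.5 in the young and of 2115 and 1741 in the old. The ages did not overlap, with a log2 difference of -0.58 (SE 0.15, adjusted p 0.135). Wrn, the Werner syndrome helicase and exonuclease, had scaled values of 5434 and 6258 in the young and of 5451.5 and 5784.5 in the old. Both old values of Wrn lay inside the young range, with a log2 difference of -0.05 (95% interval -0.40 to 0.29). The difference between Blm and Wrn was not itself tested.

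Among 4 checkpoint kinases, the ages were separated in 2, Chek1 and Chek2, against 17.4% of all genes. The upstream sensors Atm and Atr overlapped. The difference between these genes was not itself tested. Atm, which responds to broken ends, had scaled values of 8951.5 and 9307 in the young and of 9018 and 7791 in the old, with overlap between the ages (log2 difference -0.12, 95% interval -0.48 to 0.24). Atr, which responds to stalled forks, had scaled values of 5959 and 6086 in the young and of 6019 and 5249 in the old, again with overlap (log2 difference -0.10, 95% interval -0.44 to 0.24). Chek1, the kinase that ATR activates, had scaled values of 1705 and 1802.5 in the young and of 1247 and 1406 in the old. Chek1 did not overlap between the ages, with a log2 difference of -0.40 (SE 0.15, adjusted p 0.267), and unlike most genes here its lower old value was in old 13. Chek2, the kinase that ATM activates, had scaled values of 1762.5 and 1682 in the young and of 1617.5 and 1415.5 in the old. Its log2 difference of -0.19 (95% interval -0.53 to 0.16) was nearer those of Atm and Atr than that of Chek1. Without old 14 the log2 difference was -0.09 for Chek2 and -0.02 for Atm.

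The mismatch repair genes had small log2 differences, with a median of -0.17. All 4 lay below 0, against 43.5% of all genes, and none had an unadjusted p under 0.05. The ages were separated, with the old lower, in 3 of 4, against 17.4% of all genes. Msh6, which recognises single-base mismatches, had scaled values of 9026 and 9039 in the young and of 7783 and 8218 in the old. The ages were separate but the interval of the log2 difference, -0.51 to 0.16, spans 0 (estimate -0.18). Msh3, which recognises larger loops, had scaled values of 1922 and 1925 in the young and of 1861.5 and 1564.5 in the old, a log2 difference of -0.17 that was -0.05 without old 14. Of the MutL genes, Pms2 had a log2 difference of -0.21 and Mlh3 of -0.02. Msh6 overlaps Fbxo11 on the opposite strand.

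The end-joining genes had the median nearest to 0 of the roles, at -0.12, with 3 of 5 below 0 and none at an unadjusted p under 0.05. The ages were separated, with the old lower, in 2 of 5, against 17.4% of all genes. Xrcc6, the smaller Ku protein, had scaled values of 3834.5 and 3959.5 in the young and of 3209.5 and 3250 in the old, with no overlap (log2 difference -0.27, 95% interval -0.59 to 0.04, adjusted p 0.448). Xrcc5, the larger Ku protein, had scaled values of 2427 and 2707.5 in the young and of 2119 and 2642 in the old, with overlap (log2 difference -0.12, 95% interval -0.50 to 0.27). The ligase pair Xrcc4 and Lig4 lay above 0, at 0.20 (95% interval -0.25 to 0.64) and 0.08 on the log2 scale, and overlapped between the ages. Prkdc, the large kinase recruited by Ku, had a log2 difference of -0.19, which was -0.04 without old 14.

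Of the genes of chromatin at a break, H2afx encodes the histone variant that is phosphorylated there and was the most abundant of the 43 per length, at a mean FPKM of 58.4. It had scaled values of 4329 and 4752 in the young and of 3066 and 3722.5 in the old, which did not overlap, with a log2 difference of -0.42 (SE 0.16, adjusted p 0.276). Old 13 was its lowest replicate. Trp53bp1, which protects ends from resection and favours end joining, had scaled values of 8587 and 7144.5 in the young and of 9076.5 and 6728 in the old. Its replicates differed far more within an age than between ages, with a log2 difference of 0.00 (95% interval -0.46 to 0.46).

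**Figure D2:**
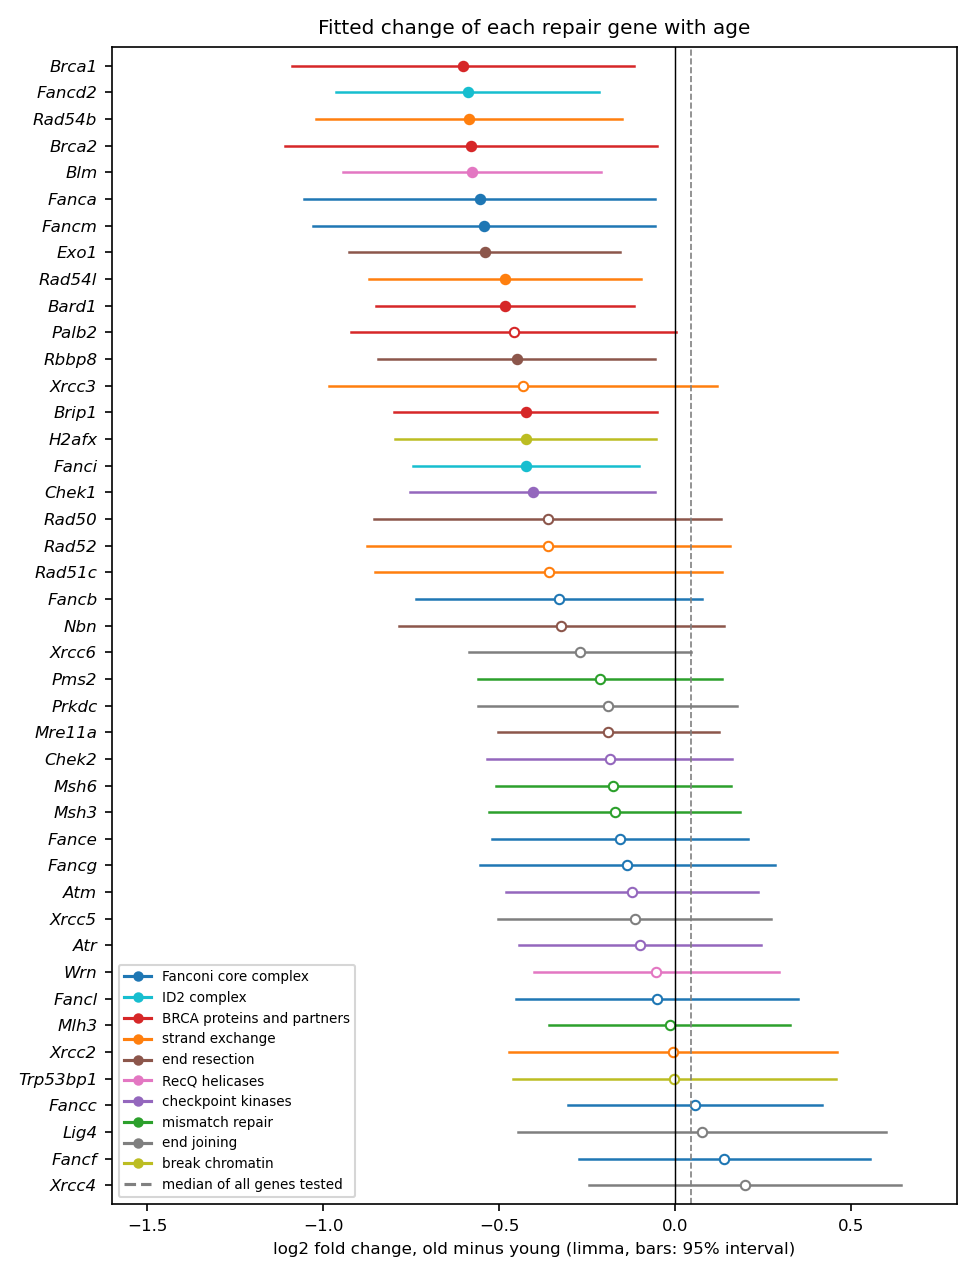
The log2 difference, old minus young, of each of the 43 repair genes is shown with its 95% interval from limma, in order of size and coloured by role, with filled points for an unadjusted p under 0.05 and a dashed line at the median of all genes tested. The 15 filled points all lie left of 0, and 39 of 43 points do.

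Levels per exon length differed widely within a role. Mean FPKM over the 4 replicates ran from 1.16 for Lig4 to 58.4 for H2afx, with a median of 9.0. After H2afx, the highest were Msh6 at 40.0, Xrcc6 at 33.9 and Rad50 at 21.9. In the MRE11 complex Rad50 stood at 21.9, Mre11a at 18.6 and Nbn at 15.0. The range of Rad50 over the replicates overlapped those of the other genes of this complex. In old 14 Rad50, at 15.5, lay below Mre11a, at 17.2. Among the end-joining genes Xrcc6 stood at 33.9 and Lig4 at 1.16. The lowest after Lig4 were Rad51c at 1.33, Rad54b at 2.56 and Fancb at 3.03. Of the 42 pairs of neighbours in this order, 38 had overlapping ranges over the replicates. The separate pairs were H2afx and Msh6, Xrcc6 and Rad50, Wrn and Nbn, and Rad54b and Rad51c.

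**Figure D3:**
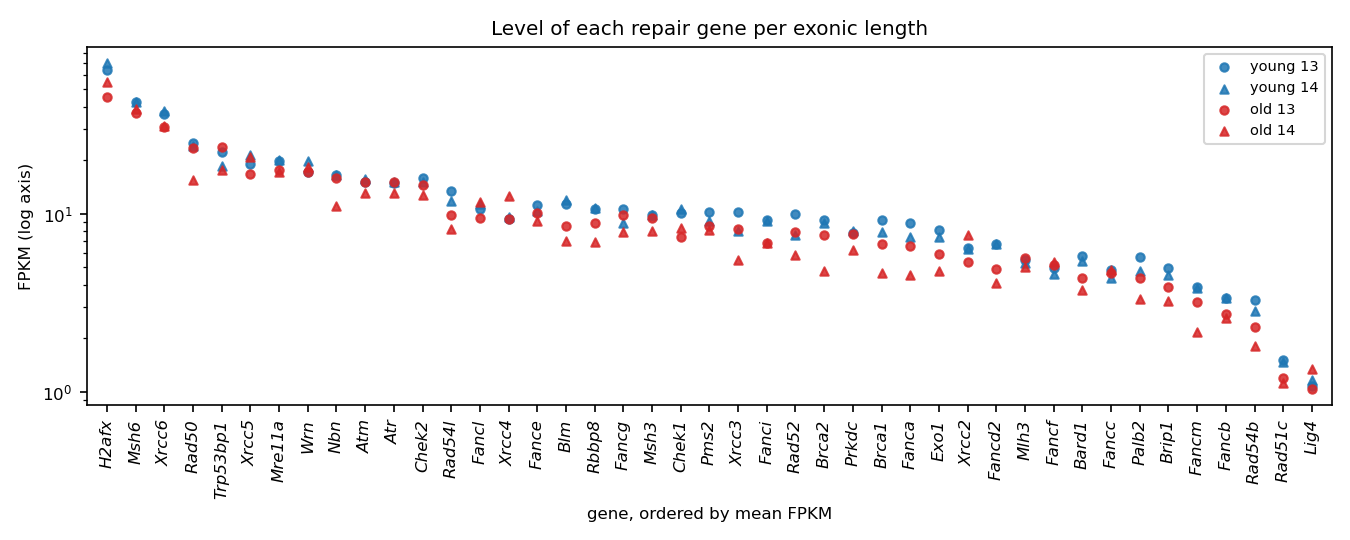
FPKM of each of the 43 repair genes on a log axis, ordered by mean, with 1 point per biological replicate, young in blue and old in red. Means run from 58.4 for H2afx to 1.16 for Lig4, and the old points of Brca1, Brca2 and Fancm spread further apart than the young ones.

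The authors' deposited table, which holds their own comparison of 24 over 4 months, marked 20 of the 43 genes as lower in old HSCs and none as higher. A mark there means a false discovery rate under 0.05 and summed mean FPKM of at least 1, and 5.82% of its 22284 genes with a rate were marked lower and 6.00% higher. The authors' deposited table marked all 5 BRCA genes and partners, both genes of the FANCD2 and FANCI pair, 4 of 6 strand exchange genes and 4 of 5 end resection genes. It marked 2 of 8 core genes and 1 each of the RecQ helicases, checkpoint kinases and break chromatin genes. None of the mismatch repair or end-joining genes was marked in the authors' deposited table. For Brca1 the authors' deposited table gives a log2 fold change of -0.60 with a rate of 9.8e-06, and for Fancd2 -0.61 with 1.43e-05. Which libraries entered that test as replicates is not stated. Over the 43 genes the median absolute technical difference was 0.033 on the log2 scale, and the median of old 14 minus old 13 was -0.21. In some genes, among them Fanci and Rad51c, the largest technical difference exceeded the difference between the replicates at either age.

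The old replicates also differed from each other in these genes. Old 14 lay below old 13 in 30 of the 43, against 48.9% of all genes, with a median difference of -0.21 on the log2 scale. The largest such gaps were -0.67 in Brca2, -0.59 in Rad50, -0.58 in Xrcc3 and -0.56 in Fancm. Old 14 was the higher replicate in Xrcc2, Xrcc4 and Lig4, by 0.50, 0.41 and 0.35. The differences were more negative in longer transcripts: across the 43 genes the Spearman correlation of exon length with the difference old 14 minus old 13 was -0.425, and with young 14 minus young 13 it was -0.063. Over all genes tested the first of these was -0.162. The genes of 1 replicate share its libraries, so these values describe those libraries. The 22 longer genes had a median of -0.26 between the old replicates and of -0.39 between the ages, and the 21 shorter ones of -0.08 and -0.27. The part of transcript length in the age difference was not tested.

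**Figure D4:**
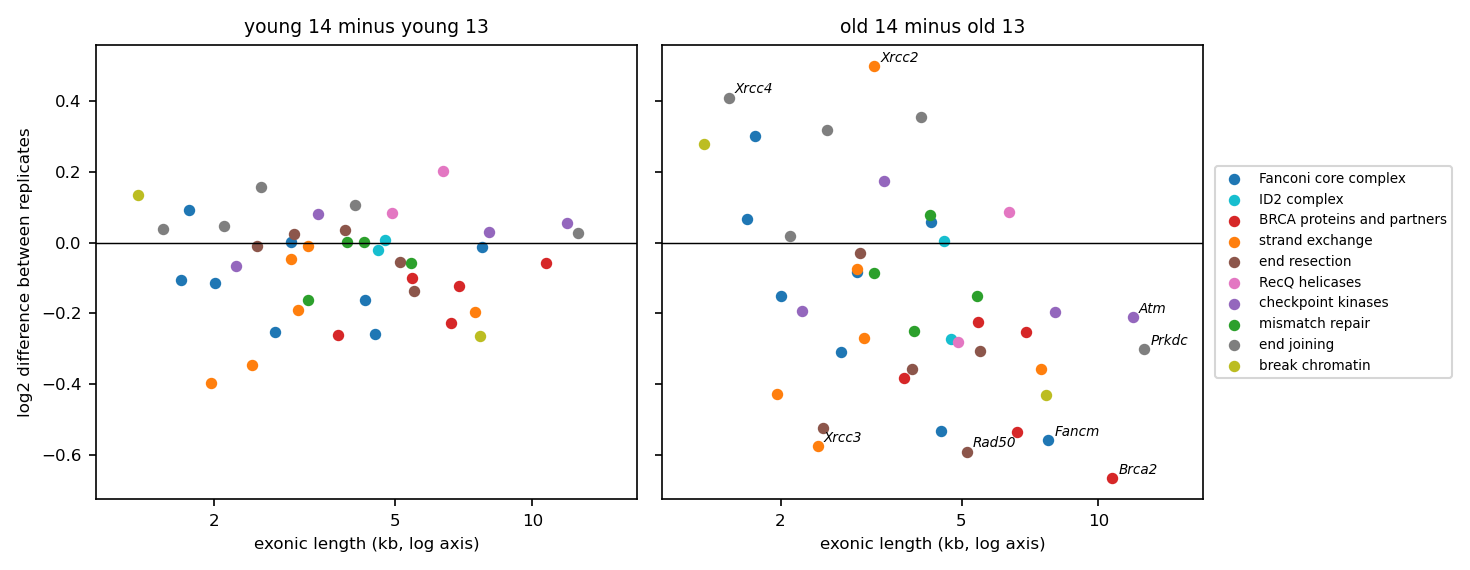
Exon length in kilobases (log axis) against the log2 difference between replicates of 1 age, young on the left and old on the right, with each point a repair gene coloured by role. The lowest point of the right panel is Brca2 at -0.67, and the longer genes Atm and Prkdc lie above it, at -0.21 and -0.30. The left panel has a Spearman correlation of -0.063.

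Other genes of the same routes, listed by function, also lay mostly below 0. Of 94 tested, 73 lay below 0, with a median of -0.20, and 17 were lower and 1 higher at an unadjusted p under 0.05. None passed after adjustment. Over all genes tested, 43.5% lay below 0, and 5.08% were lower and 8.97% higher at an unadjusted p under 0.05. Of 23 other Fanconi and crosslink repair genes, 19 lay below 0 and 3 were lower at an unadjusted p under 0.05. Rad51ap1, a cofactor of strand exchange, had scaled values of 1285 and 1150 in the young and of 855 and 686.5 in the old (log2 difference -0.67, adjusted p 0.127). Polq, the polymerase of a back-up end-joining route, had scaled values of 1989 and 1685 in the young and of 1373.5 and 745 in the old (log2 difference -0.86, adjusted p 0.221). Both were lower in both old replicates than in either young one. Without old 14 the log2 difference of Polq was -0.41.

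Of 27 other homologous recombination genes, 17 lay below 0, with a median of -0.05, and 5 were lower at an unadjusted p under 0.05. Rmi2, a subunit of the Blm complex, had scaled values of 1116 and 967.5 in the young and of 720.5 and 762 in the old (log2 difference -0.49, adjusted p 0.218). Of 17 other checkpoint genes, 16 lay below 0, led by Timeless, a fork protection protein, with scaled values of 4172 and 3747.5 in the young and of 2657 and 2090 in the old (log2 difference -0.75, adjusted p 0.0795), and by Clspn, the mediator of CHEK1 activation, at -0.63, or -0.32 without old 14. Of 15 other mismatch repair genes tested, 13 lay below 0 and 3 were lower at an unadjusted p under 0.05. Rfc2, a clamp loader subunit, had a log2 difference of -0.54 and Lig1, the replicative ligase, of -0.56, the pair with the lowest p of this list.

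Of 12 other end-joining genes, 8 lay below 0, with 1 lower and 1 higher at an unadjusted p under 0.05. The higher one was Polm, a gap-filling polymerase, with scaled values of 289 and 243 in the young and of 411.5 and 364 in the old (log2 difference 0.55, adjusted p 0.276). Dntt, the terminal transferase of lymphoid progenitors, had scaled values of 106.5 and 234 in the young and of 60.5 and 83.5 in the old. The young values of Dntt differed widely from each other, and its log2 difference of -1.15 was -0.58 without young 14.

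Genes of the cell cycle had lower values in old HSCs beside the repair genes. Of 43 S phase genes, 3 (Blm, Brip1 and Exo1) are among the repair genes. Of the remaining 40, with a median of -0.37, 38 lay below 0, against 43.5% of all genes. At an unadjusted p under 0.05, 22 of the 40 were lower, against 5.08% of all genes. The summed scaled values of the 40 were 216293 and 215976 in the young and 164453 and 172677 in the old. Uhrf1 and Cdc6 had the smallest p values, with adjusted p of 0.0712 and 0.0724. Of 54 G2 and M phase genes, 52 lay below 0, with a median of -0.52, and 38 were lower at an unadjusted p under 0.05. Ect2, a regulator of cell division, fell from scaled values of 1903 and 2074.5 to 1056.5 and 1199.5 (log2 difference -0.82, adjusted p 0.0423, limma), the 1 gene of all these lists to pass. It did not pass with any 1 replicate left out. Their summed scaled values were 321044 and 320842 in the young and 260894 and 220595 in the old. The part of the cell cycle in the values of the repair genes was not tested.

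**Figure D5:**
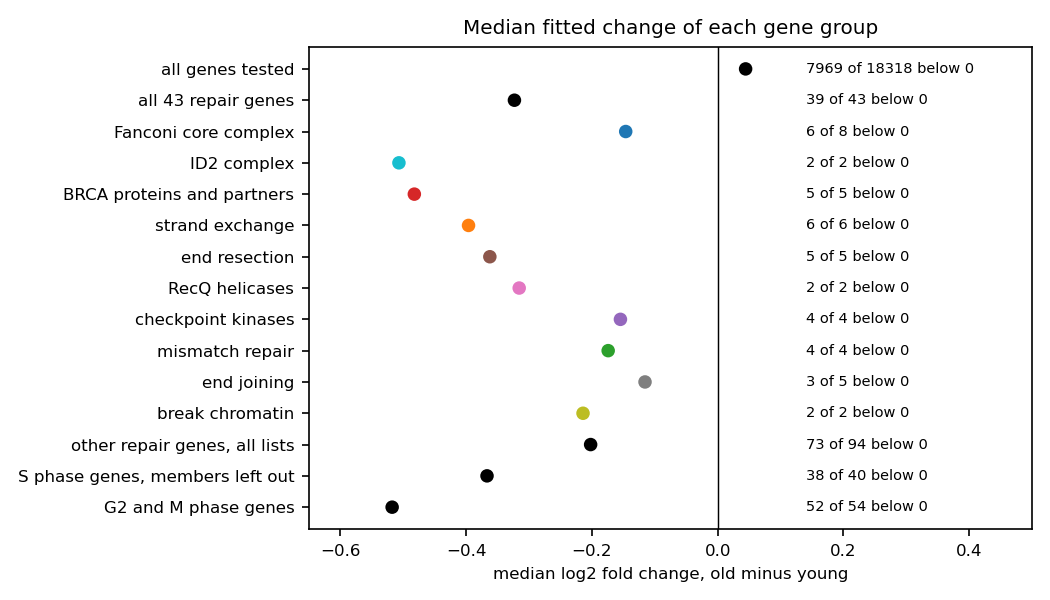
Median log2 difference, old minus young, of each role group of the repair genes, of other repair genes and of cell cycle genes, with the number of genes below 0 printed at the right. The FANCD2 and FANCI pair (ID2 complex) and the BRCA group lie near -0.5, beside G2 and M phase genes at -0.52, and end joining lies at -0.12.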

How the data were processed

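Per the labels' protocols, a Qiagen RNeasy Micro kit was used for extraction, polyA RNA was selected and a TruSeq RNA kit was used for the libraries. The submitters' processing notes name mm9 and DESeq. Aligner, counter, annotation version and strand use: not given in the sources used here. Deposited values are a score, that is, counts the authors scaled by library and rounded to whole numbers, since 4 of 8 libraries skip whole numbers. The factors, estimated from the values, were 0.617 to 1.839, off by at most 0.051% in 7 simulated libraries. The deposited FPKM is that score divided by 50 and by the exon length in kilobases, a relation found from the values. The deposited table of the whole series also gives the authors' log2 fold changes and FDR values (p-values after adjustment) for 24 over 4 months.

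The test planned for raw counts was replaced because the values are scaled. Technical libraries were averaged in pairs, and log2(value + 0.5) was fitted by age in limma 3.58.1 (R 4.3.3) with a trend in the prior and Benjamini-Hochberg adjustment. Genes with at least 10 in 2 of 4 replicates were tested. The log2 scale with this pseudocount understates the change of low genes. On simulated reads for old against young over 18318 genes (20 simulations, 200 changed genes each), 15% of genes changed 2-fold and 65.4% of those changed 4-fold were called, and 4.26% of calls were false.

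The members and lists were chosen with earlier results of these data known. The values of each replicate are given for members with an unadjusted p under 0.05 and for the 2 most abundant per length of each role, and some of their partners. From the other lists, genes with an adjusted p under 0.05, or the 2 with the smallest p, are named. Some genes that this names are not reported here. The rule did not name Fancf, Rad51c and Xrcc2, which were picked once their values had been seen. Alternatives were pseudocounts of 1 and 5, no filter, a mean FPKM of at least 1, TMM, quantile normalization, limma-voom, a robust prior, either technical library alone, the replicate number as a block, and each replicate left out. No column of values in the files was left unused for want of a label (0).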

Additional observations from a re-analysis of the deposited data

How the results depend on the processing

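Precision is limited by 2 replicates per age. Of the 645 values of the 43 genes under 15 alternatives, 610 kept their direction and side of the threshold, 17 passed it and 18, in 10 genes, reversed. The age difference over all genes (467 calls) gave 0 calls with no filter, 302 at a mean FPKM of at least 1, 302 with the lower-numbered technical libraries, and 0 to 274 with 1 replicate left out. The replicate block gave 2766 calls, 17 of the repair genes lower (smallest adjusted p 0.0033, where 5.83% of all genes were lower) and 69 calls in the other pathway and cell cycle lists. The labels do not say that the numbers pair the samples. Deviations of same-numbered samples correlated at 0.544 over 18318 genes, from 2 pairs. With the 1 call in those lists, no filter, the higher-numbered libraries and each replicate left out gave 0. In the fits with 1 replicate left out, the median log2 difference of all 43 repair genes was -0.33 to -0.21. Reversed log2 differences outside these were -0.079 in Lig4 and 0.0022 in Trp53bp1 with quantile normalization, -0.031 in Lig4 with the lower-numbered libraries, and 0.015 in Mlh3, 0.011 in Xrcc2 and 0.024 in Trp53bp1 with the higher-numbered ones. With 1 replicate left out, log2 differences that reversed ran from -0.026 to 0.14 in Fancc, -0.29 to 0.019 in Fancg, -0.20 to 0.10 in Fancl, -0.26 to 0.24 in Xrcc2, -0.16 to 0.047 in Wrn, -0.092 to 0.059 in Mlh3, -0.0068 to 0.40 in Xrcc4, -0.27 to 0.044 in Xrcc5, -0.10 to 0.25 in Lig4 and -0.22 to 0.21 in Trp53bp1. The causes were not tested.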
